A study of Homo sapiens with 12 samples.

Results

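In MUTZ-1 and SKM-1 cells, which the labels give as human marrow cells from myelodysplastic syndrome, a clonal disease in which blood cells mature poorly, 50 genes were lower after knockdown of NUDT21 in both lines. They were chosen by their measured levels in the deposited read counts. A gene was taken when its mean level was at least 10 CPM (counts per 1000000, the share of the library total) in the control group of each line and its mean with shNUDT21 was at most 0.77 of the control mean in both. Of 17518 genes in the table, 8121 reached the level, 273 of these were at or under the ratio in MUTZ-1 and 2449 in SKM-1, and 50 were in both groups. The 50 make up 18.3% of the 273 MUTZ-1 genes, while 30.2% of all 8121 genes were at or under the ratio in SKM-1. They make up 2.04% of the 2449 SKM-1 genes, while 3.36% of all 8121 were at or under it in MUTZ-1. Both shares of the 50 are thus below those over all genes at the level. Because both knockdown contrasts selected them, their ratios are given as a description without a test.

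The 12 libraries form 4 groups of 3, MUTZ-1 with shNUDT21, MUTZ-1 control, SKM-1 with shNUDT21 and SKM-1 control. The genotype label reads shNUDT21 for the knockdown libraries and WT for the controls, whose titles name a control short hairpin RNA (shRNA), so that every library comes from hairpin-bearing cells according to its title. All cells were grown in the same serum-supplemented medium. Column names of the knockdown libraries carry a single hairpin name, and the sources used here do not say whether the cells were pools or clones, or whether the 3 libraries of a group came from separate cultures. P-values therefore measure the spread between these libraries, which may be technical. The question addressed is which mRNA levels change when NUDT21 is lowered in these lines.

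Libraries held 15843012 to 18426619 counts. The label of myelodysplastic marrow cells was set against marker lists. In MUTZ-1, B-lineage markers summed to 5332 to 5424 CPM with shNUDT21 and 5416 to 5438 CPM in controls, myeloid markers to 73.9 to 83.6 and 82.4 to 95.6 CPM, and the myeloid granule gene MPO was at 0 CPM. In SKM-1, erythroid markers summed to 5411 to 5653 CPM with shNUDT21 and 1633 to 1639.9 CPM in controls (19 of 20 higher by the test below), and B-lineage markers to 116 to 121 and 50.5 to 59.7 CPM. Myeloid markers there summed to 195 to 207 CPM with shNUDT21 and 1082 to 1098 CPM in controls, and epithelial markers to 788 to 811 and 402 to 411 CPM. Gene by gene, 3 of the 12 tested myeloid markers were lower in SKM-1 and 7 higher. Of 20 B-lineage markers tested, 6 were lower and 4 higher there. The sums of these 2 lists thus went against most of the calls. In MUTZ-1, erythroid markers, TFRC among them, summed to 325 to 329.97 CPM with shNUDT21 and 726 to 748 CPM in controls. TFRC alone averaged 289 and 706 CPM and so carried most of that sum. Of the 20 erythroid markers tested, 2 were lower and 3 higher in MUTZ-1. Over all genes tested, 24.6% were lower and 24.4% higher in MUTZ-1, and 42.3% and 42.1% in SKM-1. Medians of the log2 ratio over the genes of 1 chromosome ran between -0.0095 and 0.057 in MUTZ-1 and between -1.07 (chromosome 13) and 0.52 (chromosome 21) in SKM-1. In these bulk libraries, fewer cells of a type and less RNA per cell cannot be told apart, and the part that the shifts in these markers and the chromosome medians have in the ratios was not tested.

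The product of NUDT21, the smaller protein of the cleavage factor Im complex, binds UGUA in new transcripts and helps to set where they are cut and polyadenylated. The genes described here include enzymes of sterol and fatty acid synthesis, a pathway that sterol-regulated SREBP transcription factors switch on together with NF-Y at the CCAAT boxes of many of its promoters, and genes linked to interferon, whose signal runs through receptors, the factor ISGF3 and the interferon-stimulated response elements of target promoters. A further group consists of neighbouring genes at the end of the long arm of chromosome 3.

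**Figure D1:**
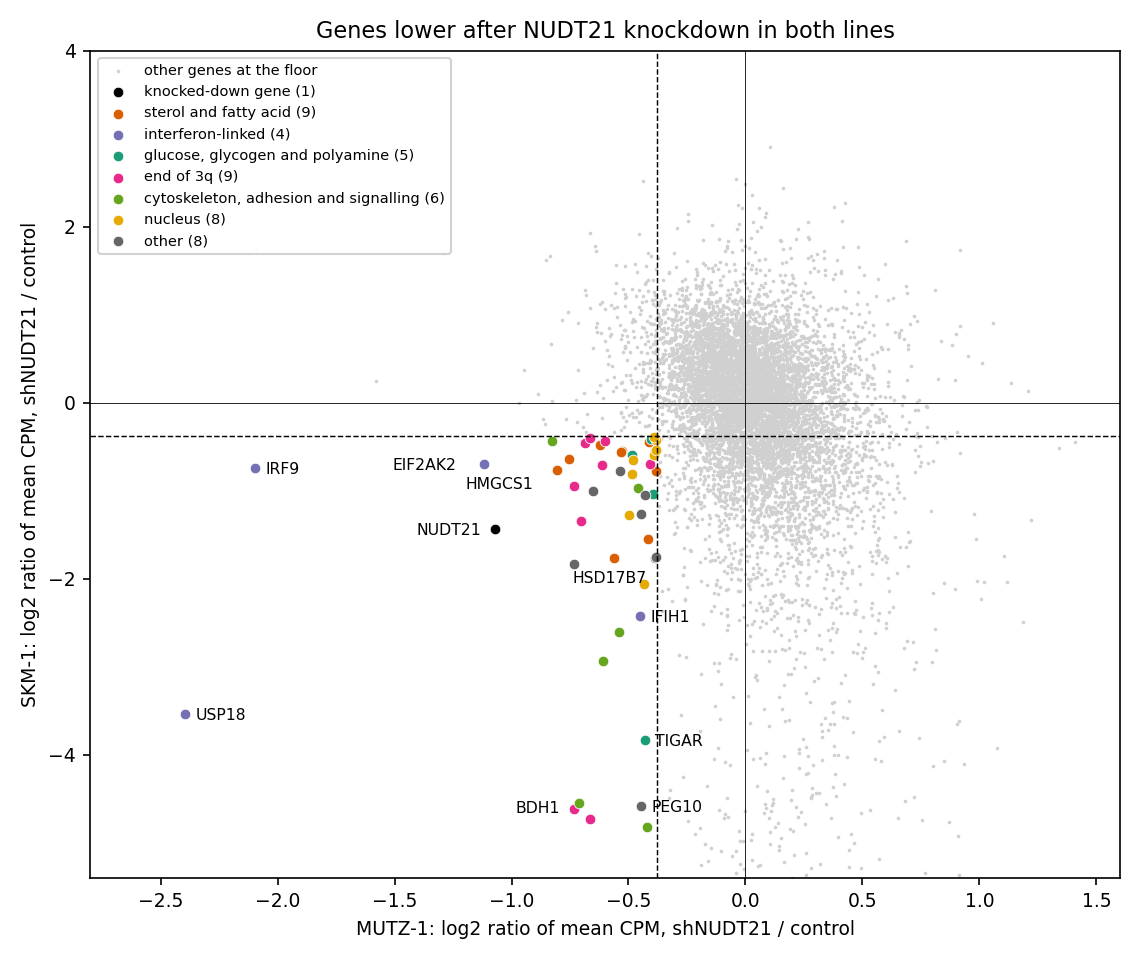
Log2 ratio of mean CPM, shNUDT21 over control, in MUTZ-1 (horizontal axis) and SKM-1 (vertical axis), for each gene at 10 CPM or more in both control groups. Dashed lines mark the ratio of 0.77, the 50 genes under both lines are coloured by group, and genes outside the axes are not drawn. USP18 and IRF9 lie farthest left, while BDH1, PEG10 and TIGAR lie low in SKM-1, with MUTZ-1 ratios of 0.602, 0.733 and 0.742.

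NUDT21 itself fell under the rule in both lines. MUTZ-1 cells with shNUDT21 had 134, 135 and 141 CPM of it, against 289, 285 and 289 CPM in MUTZ-1 controls, so that 47.6% was left. In SKM-1 it was 131, 131 and 129 CPM with shNUDT21, against 339.5, 354 and 361 CPM in the controls, which left 37.0%. Every knockdown library was under every control library of its line, the direction that the shNUDT21 label implies. NUDT21 ranked 4th of the 50 by its ratio in MUTZ-1.

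Across the 50 genes, ratios ran between 0.190 and 0.767 in MUTZ-1 (median 0.701) and between 0.0354 and 0.764 in SKM-1 (median 0.546). The medians over all 8121 genes at the level were 1.02 and 1.01. In both lines the 50 genes had no overlap between the 3 knockdown and the 3 control libraries, a property that the rule largely fixes. Of the 8121 genes at the level, every shNUDT21 library was under every control library for 29% in MUTZ-1 and 42.9% in SKM-1. For reference, edgeR's quasi-likelihood test called 24.6% of 13625 genes lower in MUTZ-1 and 42.3% lower in SKM-1 at an adjusted p under 0.05, and 24.4% and 42.1% higher. With library totals in place of TMM scaling, the MUTZ-1 split of 3356 lower and 3324 higher became 2626 lower and 4056 higher. The ratio was lower in SKM-1 for 40 genes and lower in MUTZ-1 for 10, and for 10 genes the ratios of the lines were within 1.1-fold of each other. At a ratio of 0.5 or less there were 4 genes in MUTZ-1 and 22 in SKM-1, and at 0.1 or less 0 and 7. Shares of the 8121 genes at 0.5 and 0.1 are not given here, so these counts have no background beside them. Over all 8121 genes, 3.36% were at or under 0.77 in MUTZ-1 and 30.2% in SKM-1. Low ratios being more common in SKM-1 was therefore not particular to the 50. Just inside the threshold stood FAM241A (0.767 in MUTZ-1), FDFT1 (0.767) and PKNOX1 (0.767). Just outside stood FBXL14 (0.771 in SKM-1), EPOP (0.773 in MUTZ-1) and MR1 (0.773 in MUTZ-1).

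The group with the most steps of 1 pathway was sterol synthesis, with 7 of the 50 genes. Promoter windows of 300 bases (RefSeq, GRCh38.p14, 250 bases before and 50 after the annotated start, read on the strand of the gene) were given for 4 of these 7. They are printed because all 4 contain the NF-Y box CCAAT on 1 or the other strand, in capitals.

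HMGCS1 (chr5:43313363-43313662, minus strand): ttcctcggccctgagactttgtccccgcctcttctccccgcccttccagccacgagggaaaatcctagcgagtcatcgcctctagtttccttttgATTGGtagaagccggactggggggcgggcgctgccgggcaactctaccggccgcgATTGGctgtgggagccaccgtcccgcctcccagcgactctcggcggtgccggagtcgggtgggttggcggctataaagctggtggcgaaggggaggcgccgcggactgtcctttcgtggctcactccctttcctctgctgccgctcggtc
MVD (chr16:88663042-88663341, minus strand): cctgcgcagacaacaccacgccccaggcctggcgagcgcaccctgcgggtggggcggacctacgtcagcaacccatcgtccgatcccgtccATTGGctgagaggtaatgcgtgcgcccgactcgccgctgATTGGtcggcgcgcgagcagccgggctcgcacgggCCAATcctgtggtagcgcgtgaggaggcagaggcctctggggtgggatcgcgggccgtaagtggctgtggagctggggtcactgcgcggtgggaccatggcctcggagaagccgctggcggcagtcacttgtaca
HSD17B7 (chr1:162790452-162790751, plus strand): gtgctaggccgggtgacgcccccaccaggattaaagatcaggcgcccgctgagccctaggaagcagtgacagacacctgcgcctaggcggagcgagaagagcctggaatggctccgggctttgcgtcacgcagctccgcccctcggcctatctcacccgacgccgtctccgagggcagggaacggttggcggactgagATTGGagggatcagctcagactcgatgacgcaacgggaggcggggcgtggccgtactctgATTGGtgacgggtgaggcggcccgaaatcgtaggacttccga
NSDHL (chrX:152830813-152831112, plus strand): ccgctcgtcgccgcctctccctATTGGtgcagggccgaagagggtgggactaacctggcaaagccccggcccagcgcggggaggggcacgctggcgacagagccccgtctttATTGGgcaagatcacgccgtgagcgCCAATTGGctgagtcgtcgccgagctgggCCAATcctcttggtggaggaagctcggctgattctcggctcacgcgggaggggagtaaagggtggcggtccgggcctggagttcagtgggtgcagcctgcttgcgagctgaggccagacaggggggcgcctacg

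Counted from the start, the first bases of the boxes lay at -155 and -100 in HMGCS1, at -159, -120 and -85 in MVD, and at -52 and 8 in HSD17B7. NSDHL held 5 matches, of which those at -113 and -110 overlap in the letters CCAATTGG. A second HMGCS1 window, from another annotated start, held no match. The box is common in promoters, and a match is a description of letters, not of binding. Among genes at 10 CPM or more in both controls, 44.8% of 6809 with a window held it in at least 1 window. Of the 37 genes of the 50 that had a window, 19 (51.4%) held it, and of the cholesterol synthesis list, 14 of 17 (82.4%). The sterol-element-like string TCACNCCA was found in 1 of the 37 (TNK2), and in 4.52% of the 6809.

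HMGCS1 makes HMG-CoA, an early intermediate of the pathway. HMGCS1 had 133, 123 and 125 CPM in MUTZ-1 shNUDT21 libraries, against 222, 218 and 227 CPM in MUTZ-1 control libraries (ratio 0.572). In SKM-1 it had 247, 244 and 231 CPM with shNUDT21, against 410.1, 407 and 407 CPM in controls (ratio 0.590). The knockdown libraries of SKM-1 stood above the control libraries of MUTZ-1, and within each line the groups were apart.

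MVD, which makes isopentenyl diphosphate from mevalonate diphosphate, had 32.0, 32.7 and 35.5 CPM with shNUDT21, against 42.5, 47.2 and 43.5 CPM in controls of MUTZ-1. In SKM-1 it had 92.5, 92.6 and 90.5 CPM with shNUDT21, against 126, 122 and 127 CPM in controls. The lines were further apart than knockdown and control were, with ratios of 0.752 and 0.733. FDFT1, squalene synthase, had 299, 314 and 296 CPM with shNUDT21, against 403, 398 and 384 CPM in controls of MUTZ-1, and 295, 285 and 293 CPM with shNUDT21, against 503, 489 and 501 CPM in controls of SKM-1. Its ratio in MUTZ-1, 0.767, lay just under the threshold, and in SKM-1 it was 0.584. SQLE, the epoxidase that acts on squalene, had 116, 114 and 119 CPM with shNUDT21, against 167, 165 and 173 CPM in controls of MUTZ-1. In SKM-1, SQLE had 221, 226 and 213 CPM with shNUDT21, against 317, 330.4 and 322 CPM in controls. Its ratios were nearly equal in the lines (0.691 and 0.680), and the knockdown libraries were under the controls in each.

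NSDHL, a dehydrogenase, and HSD17B7, a ketoreductase, act in the steps after lanosterol that strip methyl groups from the sterol ring. NSDHL had 20.9, 22.03 and 23.3 CPM with shNUDT21, against 30.2, 31.6 and 33.8 CPM in controls of MUTZ-1, and 45.8, 48.0 and 47.7 CPM with shNUDT21, against 70.9, 68.3 and 67.7 CPM in controls of SKM-1 (ratios 0.693 and 0.684). HSD17B7 had 24.98, 24.6 and 21.5 CPM with shNUDT21, against 32.7, 36.6 and 35.5 CPM in controls of MUTZ-1, and 14.7, 14.3 and 13.9 CPM with shNUDT21, against 47.1, 49.5 and 48.9 CPM in controls of SKM-1. Of the 7 sterol genes it had the lowest ratio in SKM-1, 0.295, against 0.678 in MUTZ-1.

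Beside these stood SCD and FABP5, which act on fatty acids. SCD, the desaturase that makes monounsaturated fatty acids, had 378, 372 and 369.9 CPM with shNUDT21, against 569.8, 570.3 and 584 CPM in controls of MUTZ-1. In SKM-1 it had 1224, 1204 and 1230.0 CPM with shNUDT21, against 1706, 1692 and 1691 CPM in controls. The ratios were 0.650 and 0.719, and the SKM-1 libraries of both groups stood above all MUTZ-1 libraries. FABP5, a carrier of fatty acids in the cell, was the one gene of the 9 with a higher level in MUTZ-1 control than in SKM-1 control. It had 117, 121 and 121 CPM with shNUDT21, against 156, 161 and 161 CPM in controls of MUTZ-1, and 21.3, 20.7 and 19.6 CPM with shNUDT21, against 60.3, 56.8 and 62.7 CPM in controls of SKM-1 (ratios 0.750 and 0.343). FABP5 has processed copies elsewhere in the genome, and how the authors' counting treated reads with several matches is not given in the sources used here. Of the 15 genes on the list of fatty acid synthesis and desaturation, SCD was the 1 among the 50. The other 14 went both ways, with 4 lower and 3 higher in MUTZ-1 and 5 lower and 7 higher in SKM-1 (edgeR, adjusted p under 0.05 over all genes tested). Shares over all genes tested were 24.6% lower and 24.4% higher in MUTZ-1, and 42.3% and 42.1% in SKM-1.

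**Figure D2:**
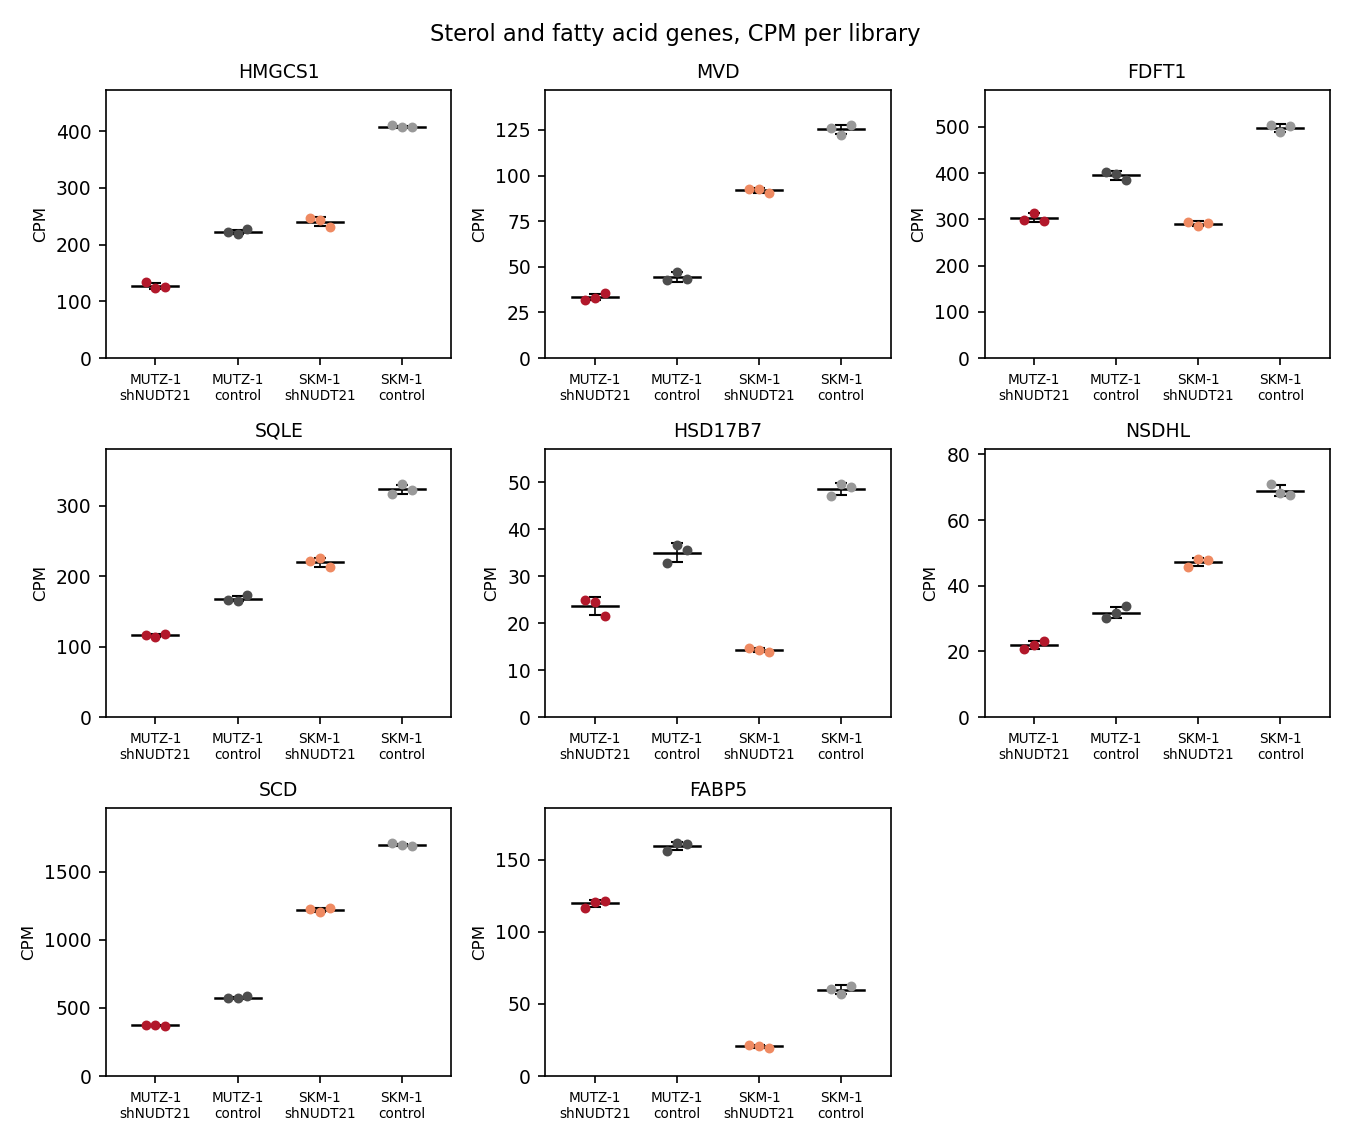
CPM in each library for 8 of the 9 genes of sterol and fatty acid metabolism. Points are libraries, horizontal lines are group means and bars are the SD over 3 libraries. In each line the 3 shNUDT21 libraries lie under the 3 controls, and for SCD the SKM-1 means of 1219 and 1696 CPM lie above the MUTZ-1 means of 373 and 575 CPM.

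Of the 22 genes on the cholesterol synthesis list, 19 were lower and 2 higher in MUTZ-1, and 16 lower and 5 higher in SKM-1. These counts include the 7 genes that the rule held low in both lines. Taking those 7 out by itself leaves a rest that is less alike between the lines. Of the 15 genes on the list outside the 50, 12 were lower and 2 higher in MUTZ-1. In SKM-1, 9 of the 15 were lower and 5 higher (edgeR's quasi-likelihood test, adjusted p under 0.05 for all these counts). Their median log2 change was -0.19 in MUTZ-1 and -0.17 in SKM-1, and that of all genes tested was 0 in both. In both lines 7 of the 15 were lower, and 5 were called in opposite directions. Over all genes tested, 24.6% were lower and 24.4% higher in MUTZ-1, and 42.3% and 42.1% in SKM-1. ACAT2, which makes acetoacetyl-CoA at the head of the pathway, averaged 69.6 ± 2.73 CPM with shNUDT21 and 103 ± 3.54 CPM in controls of MUTZ-1 (log2 change -0.61 ± 0.04 SE, adjusted p = 2.76e-35 by edgeR). In SKM-1 it went the other way, with 159 ± 0.619 CPM with shNUDT21 and 129.7 ± 4.56 CPM in controls (0.37 ± 0.03 SE, adjusted p = 1.89e-22 by edgeR). DHCR7, which acts at the last step to cholesterol, was lower in MUTZ-1 (-0.48 ± 0.04 SE) and higher in SKM-1 (0.16 ± 0.03 SE), and the SKM-1 call was lost with limma on log2(FPKM + 1) (0.073, adjusted p = 0.078). LBR, a sterol reductase of the nuclear envelope, was also lower in MUTZ-1 and higher in SKM-1 (-0.15 ± 0.02 and 0.90 ± 0.03 SE).

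IDI1, which makes dimethylallyl diphosphate, and LSS, lanosterol synthase, were lower in both lines. For IDI1 the log2 change was -0.56 ± 0.04 SE in MUTZ-1 and -0.13 ± 0.03 SE in SKM-1, and for LSS it was -0.46 ± 0.03 and -0.17 ± 0.03 SE. MSMO1, a methylsterol oxidase, averaged 54.0 ± 0.598 CPM with shNUDT21 and 67.1 ± 3.20 CPM in controls of MUTZ-1, and 25.6 ± 1.19 CPM with shNUDT21 and 122 ± 3.11 CPM in controls of SKM-1. MSMO1 missed the rule because of its MUTZ-1 ratio. The upstream kinase gene MVK and the farnesyl diphosphate synthase gene FDPS were lower in both lines, by more in SKM-1 (-0.38 ± 0.08 and -1.01 ± 0.06 SE for MVK, -0.17 ± 0.03 and -0.71 ± 0.03 SE for FDPS).

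The transcription factor and the feedback genes of the pathway are not among the 50. Of 16 tested genes on the list of sterol uptake and SREBP control, 4 were lower and 6 higher in MUTZ-1, and 8 were lower and 6 higher in SKM-1. The shares over all genes tested were 24.6% and 24.4% in MUTZ-1, and 42.3% and 42.1% in SKM-1. SREBF2 and INSIG1 were chosen after their values were seen. SREBF2, the SREBP gene most tied to sterol synthesis, averaged 479.5 ± 8.83 CPM with shNUDT21 and 433 ± 6.90 CPM in controls of MUTZ-1 (log2 change 0.10 ± 0.02 SE, adjusted p = 5.24e-05 by edgeR), and 208 ± 2.61 CPM with shNUDT21 and 555 ± 9.85 CPM in controls of SKM-1 (-1.33 ± 0.02 SE, adjusted p = 2.48e-124 by edgeR). It was higher with shNUDT21 in MUTZ-1 and lower in SKM-1. INSIG1, which holds SREBP in the endoplasmic reticulum and is itself an SREBP target, was lower in both (-0.41 ± 0.03 SE in MUTZ-1, -0.60 ± 0.03 SE in SKM-1).

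Genes linked to interferon held the lowest ratios in MUTZ-1. For EIF2AK2 and IFIH1, promoter windows are printed because they contain the string GAAANNGAA on 1 or the other strand, in capitals, the core of an interferon-stimulated response element.

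EIF2AK2 (chr2:37156931-37157230, minus strand): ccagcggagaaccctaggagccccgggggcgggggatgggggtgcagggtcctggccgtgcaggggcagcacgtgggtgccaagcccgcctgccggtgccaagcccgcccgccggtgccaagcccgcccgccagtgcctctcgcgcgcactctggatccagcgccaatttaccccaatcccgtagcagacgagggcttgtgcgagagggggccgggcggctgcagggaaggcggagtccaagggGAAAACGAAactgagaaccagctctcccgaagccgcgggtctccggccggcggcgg
IFIH1 (chr2:162318635-162318934, minus strand): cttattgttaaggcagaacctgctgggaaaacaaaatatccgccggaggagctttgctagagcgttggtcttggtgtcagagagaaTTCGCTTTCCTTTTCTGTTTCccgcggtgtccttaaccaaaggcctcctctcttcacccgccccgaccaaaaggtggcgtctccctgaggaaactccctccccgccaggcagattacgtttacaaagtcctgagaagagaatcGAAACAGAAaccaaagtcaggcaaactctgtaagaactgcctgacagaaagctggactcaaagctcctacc

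The match in EIF2AK2 begins at -6. In IFIH1, 3 overlapping matches begin at -164, -158 and -152 and another at -21. Beside these, RAD51AP1 was the only other of the 37 genes with a window to hold the string (3 of 37, 8.11%). It was found in 8.4% of the 6809 genes at 10 CPM or more, and in 21 of 28 genes of the type I interferon list (75%). IRF9, whose window was searched too, did not hold it.

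USP18, a protease that removes the ubiquitin-like ISG15 from proteins and dampens signalling at the interferon receptor, had the lowest MUTZ-1 ratio of all 50. It had 2.27, 2.46 and 2.60 CPM in MUTZ-1 shNUDT21 libraries, against 11.5, 14.1 and 12.9 CPM in MUTZ-1 control libraries. In SKM-1 it had 0.812, 1.07 and 0.868 CPM with shNUDT21, against 12.3, 10.7 and 8.95 CPM in controls. The means came to 19.0% and 8.60% of control, and no knockdown library came near a control. USP18 was 1.32-fold higher in MUTZ-1 control than in SKM-1 control (adjusted p = 0.00155 by edgeR). IRF9, the DNA-binding subunit of the interferon-activated factor ISGF3, had 7.84, 9.72 and 9.03 CPM with shNUDT21, against 36.6, 39.0 and 38.2 CPM in controls of MUTZ-1. In SKM-1, IRF9 had 7.55, 8.98 and 8.80 CPM with shNUDT21, against 14.5, 14.2 and 13.7 CPM in controls. The knockdown libraries of the lines stood at about 1 level, while the controls were higher in MUTZ-1 (ratios 0.234 and 0.597).

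EIF2AK2 encodes PKR, a kinase that double-stranded RNA activates and that slows translation. It had 101, 102 and 93.3 CPM with shNUDT21, against 211, 211 and 219 CPM in controls of MUTZ-1, and 77.9, 78.2 and 80.7 CPM with shNUDT21, against 129.5, 126 and 128 CPM in controls of SKM-1. The ratio was lower in MUTZ-1 (0.461) than in SKM-1 (0.616). IFIH1 encodes MDA5, a sensor of long double-stranded RNA. It had 14.5, 16.7 and 15.2 CPM with shNUDT21, against 20.5, 22.3 and 20.5 CPM in controls of MUTZ-1, and 5.31, 5.05 and 5.95 CPM with shNUDT21, against 27.9, 30.8 and 29.02 CPM in controls of SKM-1. Here the order was the other way, with ratios of 0.732 in MUTZ-1 and 0.186 in SKM-1.

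**Figure D3:**
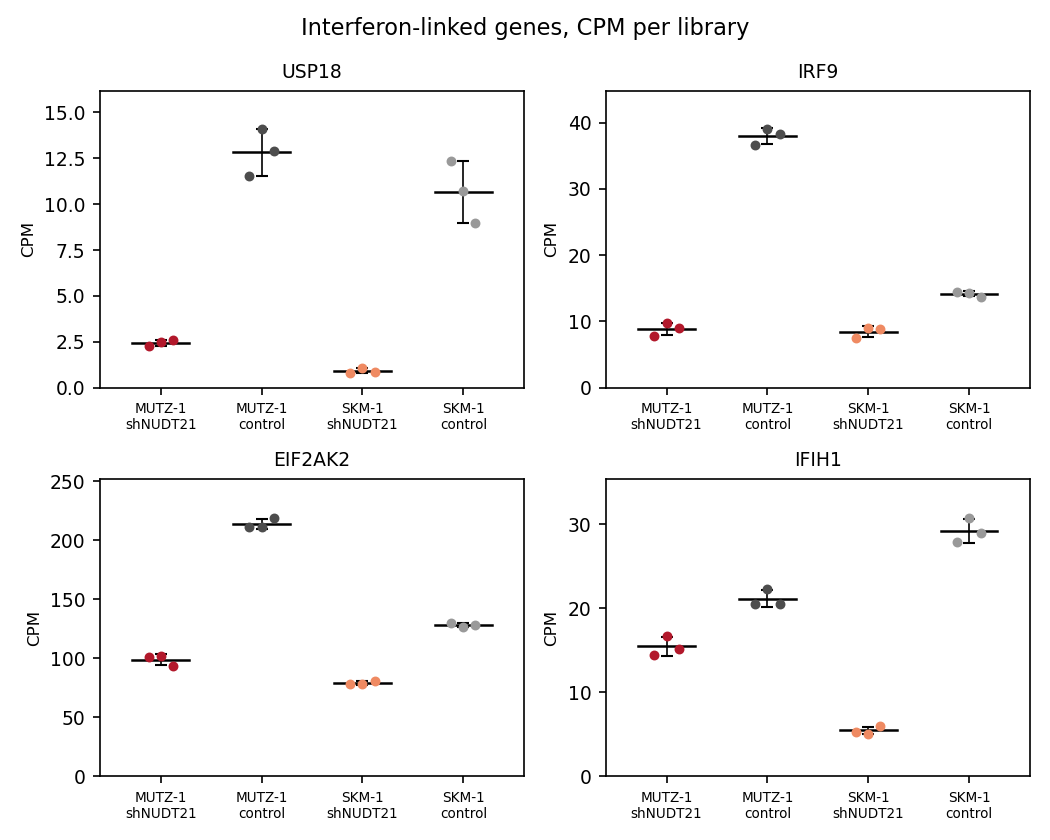
CPM in each library for USP18, IRF9, EIF2AK2 and IFIH1. Points are libraries, horizontal lines are group means and bars are the SD over 3 libraries. Knockdown libraries lie under the controls in each line, with IRF9 means of 8.86 and 37.9 CPM in MUTZ-1 and IFIH1 means of 5.44 and 29.2 CPM in SKM-1.

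Beyond these genes, the interferon response differed between the lines. The type I interferon list held 36 tested genes, of which USP18, IRF9 and IFIH1 are among the 50. Of the other 33, 27 were lower and 2 higher in MUTZ-1, against 24.6% lower and 24.4% higher over all genes tested, and 11 were lower and 12 higher in SKM-1, against 42.3% and 42.1%. The median log2 change of the 33 was -1.23 in MUTZ-1. In SKM-1 it was -0.17, or 0.04 with the 3 genes that had no count in the SKM-1 shNUDT21 group (IFI44L, OAS1 and XAF1) set to a floor of 3 counts over the group. In all, 8 of the 33 were lower in both lines and 11 were called in opposite directions. IFI44, an interferon-induced protein gene, averaged 1.97 ± 0.377 CPM with shNUDT21 and 32.1 ± 1.68 CPM in controls of MUTZ-1, and in SKM-1 it had 3 counts over the shNUDT21 group and 128 over the control group. OAS1, an enzyme that double-stranded RNA activates to produce oligoadenylates, averaged 25.7 ± 2.83 CPM with shNUDT21 and 73.9 ± 1.81 CPM in controls of MUTZ-1, and had 0 counts over the shNUDT21 group and 24 over the control group of SKM-1. Both were called lower in both lines, and their SKM-1 controls, at 2.52 and 0.470 CPM, were below the level that the rule asks. HERC6, a ligase of the HERC family, was lower in both lines too, at 0.914 ± 0.275 CPM with shNUDT21 and 2.55 ± 0.582 CPM in controls of MUTZ-1, and 0.735 ± 0.0624 and 9.39 ± 0.612 CPM in SKM-1.

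BST2, the membrane protein tetherin, was lower in MUTZ-1 and higher in SKM-1. It averaged 98.9 ± 2.59 CPM with shNUDT21 and 155 ± 3.69 CPM in controls of MUTZ-1 (log2 change -0.69 ± 0.03 SE, adjusted p = 9.42e-48 by edgeR), and 142 ± 3.49 CPM with shNUDT21 and 41.2 ± 1.09 CPM in controls of SKM-1 (1.86 ± 0.04 SE, adjusted p = 4.70e-108 by edgeR). ISG15, the modifier that USP18 removes from proteins, was likewise lower in MUTZ-1 and higher in SKM-1 (-2.47 ± 0.10 and 0.43 ± 0.13 SE).

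Among genes of glucose, glycogen and polyamine metabolism, the most abundant per length were LDHA and ODC1 (means of 641 and 296 FPKM, fragments scaled to transcript length and library size, in MUTZ-1 controls), with much the same ratios in both lines. LDHA, a subunit of lactate dehydrogenase, had 1149.8, 1157 and 1136 CPM with shNUDT21, against 1599, 1606 and 1605 CPM in controls of MUTZ-1, and 1252, 1255 and 1239 CPM with shNUDT21, against 1881, 1874 and 1896 CPM in controls of SKM-1. ODC1, ornithine decarboxylase, which starts polyamine synthesis, had 682, 669 and 674 CPM with shNUDT21, against 882, 908 and 887 CPM in controls of MUTZ-1, and 636, 642 and 629.8 CPM with shNUDT21, against 838, 856 and 852 CPM in controls of SKM-1. The ratios of LDHA were 0.716 and 0.663, those of ODC1 0.756 and 0.749, and the groups were narrow and apart. HK2, a hexokinase that commits glucose to glycolysis, had 202, 196 and 195 CPM with shNUDT21, against 266, 254 and 257 CPM in controls of MUTZ-1, and 134, 118 and 138 CPM with shNUDT21, against 184, 189.8 and 198 CPM in controls of SKM-1 (ratios 0.764 and 0.681). PYGB, a glycogen phosphorylase, averaged 42.4 ± 1.19 CPM with shNUDT21 and 55.8 ± 1.596 CPM in controls of MUTZ-1, and 32.0 ± 1.64 CPM with shNUDT21 and 65.7 ± 1.05 CPM in controls of SKM-1 (SD, n = 3 each).

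TIGAR, a p53 target whose product lowers flux through glycolysis, had 21.2, 18.1 and 19.9 CPM with shNUDT21, against 27.0, 27.3 and 25.5 CPM in controls of MUTZ-1. In SKM-1 it had 1.75, 1.66 and 2.29 CPM with shNUDT21, against 27.2, 24.5 and 29.5 CPM in controls. It was nearly lost in SKM-1 (7.02% left) and little reduced in MUTZ-1 (74.2% left) from like control levels. Of the glycolysis list of 21 genes, LDHA and HK2 are among the 50, and of the other 19, 11 were lower and 4 higher in MUTZ-1 and 10 were lower and 6 higher in SKM-1. Of 22 other p53 targets tested, 4 were lower and 11 higher in MUTZ-1 and 10 lower and 10 higher in SKM-1. For both lists, the shares over all genes tested were 24.6% lower and 24.4% higher in MUTZ-1, and 42.3% and 42.1% in SKM-1.

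At the end of the long arm of chromosome 3, 9 of the 50 genes lay among 26 genes at 10 CPM or more (LSG1 to LMLN, positions 194640791 to 198043720, GRCh38.p14). The other 416 such genes of chromosome 3 held 1 of the 50. In MUTZ-1, 25 of the 26 had a ratio under 1 and 20 a ratio of 0.77 or less, with a median of 0.631. These counts and the median include the 9 genes that the rule held at 0.77 or less. Of the 17 that are not among the 50, 16 were lower and 1 was higher in MUTZ-1, and 7 were lower and 8 higher in SKM-1 (edgeR's quasi-likelihood test, adjusted p under 0.05). Their median ratio was 0.649 in MUTZ-1 and 0.914 in SKM-1. Of the 17, 11 were at 0.77 or less in MUTZ-1, and being outside the 50 means that these were above 0.77 in SKM-1. The SKM-1 values of the 17 are thus partly set by the rule. With the 9 included, the SKM-1 median over the 26 genes was 0.749. Over all genes tested, 24.6% were lower and 24.4% higher in MUTZ-1, and 42.3% and 42.1% in SKM-1. The shift had the same size in each MUTZ-1 shNUDT21 library, with medians over the 26 genes of -0.67, -0.66 and -0.63 (log2 of CPM over the MUTZ-1 control mean), against -0.0059, -0.020 and 0.011 in the MUTZ-1 control libraries. The stretch and its first gene, LSG1, were chosen after the values were seen.

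The MUTZ-1 pattern stood apart from the rest of the genome. Of 7790 windows of 15 neighbouring genes, 14 had a median log2 ratio of -0.5 or lower in MUTZ-1, and all 14 reached into the end of 3q. The lowest window was at -0.68, at the very end of the chromosome, and the lowest away from it was -0.22, between PPIB and INTS14 on chromosome 15. In SKM-1 the last window of chromosome 3 was at -0.40 and ranked 1317 of 7790, and windows ran between -1.89 and 1.11. A window held at most 6 of the 50 genes at the end of 3q and at most 2 elsewhere. Copy number of 3q was not measured, and its part in these ratios was not tested.

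**Figure D4:**
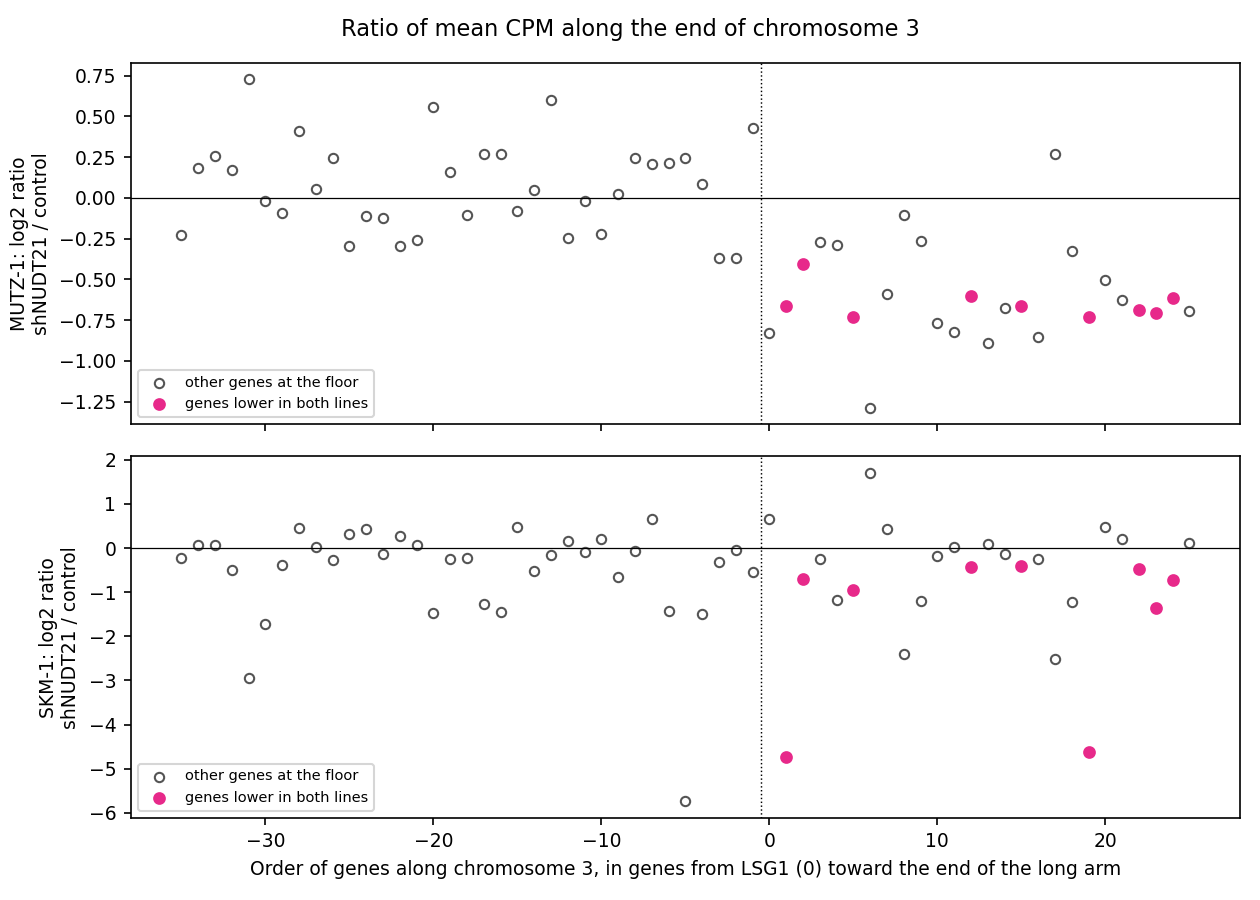
Log2 ratio of mean CPM, shNUDT21 over control, for genes in their order along the end of chromosome 3, in MUTZ-1 (top) and SKM-1 (bottom). Filled points are genes among the 50, the dotted line stands before LSG1, and 25 of the 26 genes to its right lie under 0 in MUTZ-1 and 18 in SKM-1. Of the 17 open points to its right, 16 lie under 0 in MUTZ-1 and 9 in SKM-1.

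RPL35A, a protein of the large ribosomal subunit whose gene is mutated in some Diamond-Blackfan anaemia, was the most abundant of the 9 per length (585 FPKM in MUTZ-1 controls). It had 473, 461 and 483 CPM with shNUDT21, against 718, 729.5 and 718 CPM in controls of MUTZ-1, and 480.0, 501 and 483 CPM with shNUDT21, against 777, 832 and 790.3 CPM in controls of SKM-1. The levels and ratios of the lines were much alike (0.654 and 0.610). NCBP2, the small subunit of the nuclear cap-binding complex, had 105, 103 and 108 CPM with shNUDT21, against 162, 173 and 165 CPM in controls of MUTZ-1, and 117, 119 and 120.4 CPM with shNUDT21, against 154, 158 and 157 CPM in controls of SKM-1. TNK2, a non-receptor tyrosine kinase also called ACK1, had 120.5, 123 and 113 CPM with shNUDT21, against 206, 191 and 196 CPM in controls of MUTZ-1, and 50.1, 51.5 and 51.9 CPM with shNUDT21, against 96.8, 99.8 and 98.4 CPM in controls of SKM-1. Of these 2, NCBP2 was reduced more in MUTZ-1 (ratios 0.632 and 0.760) and TNK2 more in SKM-1 (0.602 and 0.520).

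BDH1 and FAM43A were nearly lost in SKM-1. BDH1, a mitochondrial enzyme of ketone bodies, had 67.3, 70.9 and 66.2 CPM with shNUDT21, against 113, 111 and 116 CPM in controls of MUTZ-1, and 1.37, 2.32 and 1.86 CPM with shNUDT21, against 46.6, 45.4 and 44.6 CPM in controls of SKM-1. FAM43A had 6.21, 7.13 and 7.73 CPM with shNUDT21, against 11.3, 10.8 and 11.3 CPM in controls of MUTZ-1, and 1.69, 1.13 and 1.05 CPM with shNUDT21, against 34.5, 34.9 and 33.6 CPM in controls of SKM-1. What was left in SKM-1 was 4.07% of BDH1 and 3.76% of FAM43A, while in MUTZ-1 it was 60.2% and 63.1%, near the median of the stretch. PIGX, which takes part in adding the first mannose of the GPI anchor, had ratios of 0.659 in MUTZ-1 and 0.738 in SKM-1. XXYLT1, a xylosyltransferase that extends sugars on Notch, had 0.754 and 0.615. LRCH3 had 0.622 and 0.725, and IQCG 0.614 and 0.393. RPL35A lies inside the span of IQCG, and the strand setting of the authors' counting is not given in the sources used here, so that reads of one could enter the count of the other.

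Of the 17 neighbours outside the 50, 6 were lower in both lines, 9 were called in opposite directions and 2 were called in MUTZ-1 alone. The 4 given here are of the 9 and were chosen after their values were seen. TFRC, the transferrin receptor and one of the erythroid markers, averaged 289 ± 2.80 CPM with shNUDT21 and 706 ± 12.3 CPM in controls of MUTZ-1 and 1456 ± 24.5 CPM with shNUDT21 and 447 ± 9.06 CPM in controls of SKM-1 (log2 changes -1.34 ± 0.02 and 1.79 ± 0.02 SE). PAK2, a kinase under Rac and Cdc42, averaged 280.3 ± 4.08 CPM with shNUDT21 and 519 ± 10.4 CPM in controls of MUTZ-1, and 220.4 ± 6.79 CPM with shNUDT21 and 206 ± 2.29 CPM in controls of SKM-1 (-0.94 ± 0.02 and 0.18 ± 0.03 SE). LSG1, a GTPase of ribosome assembly, was lower in MUTZ-1 and higher in SKM-1 (-0.88 ± 0.04 and 0.75 ± 0.04 SE). MELTF, melanotransferrin, was the 1 gene of the 17 that was higher in MUTZ-1 (0.22 ± 0.07 SE, adjusted p = 0.0063 by edgeR), and in SKM-1 it was lower (-2.43 ± 0.08 SE).

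In SKM-1, 7 of the 50 genes had a ratio of 0.1 or less, a count given without the share over all genes. Beside USP18, TIGAR, BDH1 and FAM43A, they were ABR, NECTIN1 and PEG10. ABR, which regulates small GTPases, had 46.4, 48.2 and 48.2 CPM with shNUDT21, against 63.5, 64.1 and 63.2 CPM in controls of MUTZ-1, and 1.37, 1.61 and 1.98 CPM with shNUDT21, against 45.4, 47.3 and 47.3 CPM in controls of SKM-1. At 3.54% left it was the lowest ratio of the 50 in either line, while 74.8% was left in MUTZ-1. NECTIN1, a cell adhesion molecule and herpesvirus receptor, had 22.5, 21.4 and 22.3 CPM with shNUDT21, against 37.6, 35.6 and 35.5 CPM in controls of MUTZ-1, and 3.995, 4.16 and 4.28 CPM with shNUDT21, against 97.0, 95.5 and 97.8 CPM in controls of SKM-1. Its SKM-1 controls were the highest libraries and its SKM-1 knockdowns the lowest. PEG10, an imprinted gene derived from a retrotransposon, had 552, 562 and 573 CPM with shNUDT21, against 764, 760.4 and 775 CPM in controls of MUTZ-1, and 7.24, 6.72 and 7.31 CPM with shNUDT21, against 172, 170.4 and 166 CPM in controls of SKM-1. All MUTZ-1 libraries of PEG10 stood above all SKM-1 libraries, and 73.3% and 4.18% of control were left.

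The other genes of the cytoskeleton, adhesion and signalling were ACTG1, TLN2, PLEKHA1 and PLEKHA2. ACTG1, a cytoplasmic actin, had 1152, 1166 and 1167 CPM with shNUDT21, against 1606, 1602 and 1586 CPM in controls of MUTZ-1, and 1069, 1064 and 1039 CPM with shNUDT21, against 2084, 2052 and 2070.5 CPM in controls of SKM-1. It was the most abundant of the 50 per length in the SKM-1 controls (1015 FPKM, against 753 for LDHA and 648 for RPL35A), and it has processed copies that may share reads. Of 29 other actin and myosin genes tested, 11 were lower and 6 higher in MUTZ-1 and 4 were lower and 25 higher in SKM-1. The shares over all genes tested were 24.6% and 24.4% in MUTZ-1, and 42.3% and 42.1% in SKM-1. TLN2, a talin that ties integrins to actin, averaged 14.5 ± 1.84 CPM with shNUDT21 and 22.2 ± 2.58 CPM in controls of MUTZ-1, and 2.76 ± 0.282 CPM with shNUDT21 and 21.1 ± 1.62 CPM in controls of SKM-1 (SD, n = 3 each). PLEKHA1 and PLEKHA2 are adaptors that bind a membrane phosphoinositide, and they differed in their pattern. PLEKHA1 averaged 7.46 ± 0.703 CPM with shNUDT21 and 10.8 ± 0.978 CPM in controls of MUTZ-1, and 3.62 ± 0.625 CPM with shNUDT21 and 22.1 ± 1.6 CPM in controls of SKM-1, so that more was lost in SKM-1. PLEKHA2 had 95.9, 96.8 and 95.4 CPM with shNUDT21, against 174, 166 and 172 CPM in controls of MUTZ-1, and 27.7, 26.6 and 28.1 CPM with shNUDT21, against 36.7, 38.3 and 35.9 CPM in controls of SKM-1, so that more was lost in MUTZ-1 (ratios 0.563 and 0.742).

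Of the 8 genes with nuclear functions, 7 had the lower ratio in SKM-1. Ratios of the 8 ran between 0.708 and 0.767 in MUTZ-1 and between 0.239 and 0.764 in SKM-1. SETDB2, of a family of histone methyltransferases, had the lowest SKM-1 value, with 27.3 ± 3.46 CPM with shNUDT21 and 36.9 ± 1.05 CPM in controls of MUTZ-1, and 4.60 ± 0.276 CPM with shNUDT21 and 19.2 ± 0.300 CPM in controls of SKM-1 (SD, n = 3 each). SETDB2 and NUFIP1, which helps to assemble small nucleolar ribonucleoproteins, lie on chromosome 13, where the median log2 ratio in SKM-1 was -1.07. NUFIP1 stood at ratios of 0.715 in MUTZ-1 and 0.572 in SKM-1. MED30, a Mediator subunit, had ratios of 0.708 and 0.414, and RAD51AP1, which takes part in homologous recombination, 0.762 and 0.663. SAP30L, of a Sin3 repressor complex, had ratios of 0.766 and 0.692, and PKNOX1, a homeodomain partner of PBX proteins, 0.767 and 0.744. The zinc finger genes ZKSCAN1 and ZNF26 had 0.716 and 0.762 in MUTZ-1, and 0.636 and 0.764 in SKM-1.

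The remaining genes share no function, and each had the lower ratio in SKM-1, as did 40 of all 50. C1orf43 had 209, 209 and 199.6 CPM with shNUDT21, against 318, 329 and 324 CPM in controls of MUTZ-1, and 146, 140.0 and 147 CPM with shNUDT21, against 283, 289 and 293 CPM in controls of SKM-1. FAM120C had 22.1, 24.7 and 22.1 CPM with shNUDT21, against 39.0, 37.3 and 38.0 CPM in controls of MUTZ-1, and 6.68, 6.96 and 6.63 CPM with shNUDT21, against 26.3, 23.9 and 21.7 CPM in controls of SKM-1. Both were among the 12 with the lowest larger ratio, at 0.636 and 0.602 in MUTZ-1. The lysosomal sulfatase gene ARSB had ratios of 0.690 in MUTZ-1 and 0.584 in SKM-1, and DNASE1, a secreted nuclease, 0.765 and 0.294. CHCHD7, a small mitochondrial protein gene, had 0.743 and 0.485, and FAM241A 0.767 and 0.296. Within a group, the widest scatter over the 50 genes was that of FAM43A in the SKM-1 shNUDT21 libraries given above, a coefficient of variation of 26.8% at about 1 CPM, and the median over genes and groups was 2.90%.

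Control means entered the rule as the minimum level and as the denominator of each ratio, so that the control levels are not independent of the choice of genes. The difference between the control groups of the lines was not itself a criterion, and it was tested over all genes. Of the 50 genes, 24 were higher and 22 lower in MUTZ-1 control than in SKM-1 control (edgeR's quasi-likelihood test, adjusted p under 0.05), against 41.4% higher and 48.8% lower of the 13625 genes tested, and 52.6% and 37.0% of the 8121 at the level. At least 2-fold differences numbered 9 and 5. IQCG, RPL35A, FAM241A and TIGAR were not called. The median log2 difference, MUTZ-1 control minus SKM-1 control, was 0.05 for the 50, 0.15 for genes at the level and -0.11 for all genes tested. Replacing TMM with library totals moved the median gene by -0.14 in this comparison, with 21 higher and 24 lower.

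By function, the sterol and fatty acid genes leaned to SKM-1, with 1 higher and 8 lower in MUTZ-1 control. Over the 8121 genes at the level, 52.6% were higher and 37.0% lower in MUTZ-1 control. SCD was lower in MUTZ-1 control by -1.43 ± 0.02 SE on the log2 scale (means 575 ± 7.83 and 1696 ± 8.80 CPM, adjusted p = 1.00e-148 by edgeR). MVD was lower as well (-1.36 ± 0.04 SE, adjusted p = 2.19e-80 by edgeR), and FABP5 was higher (1.55 ± 0.04 SE, adjusted p = 5.69e-99 by edgeR). At the end of 3q, 6 of the 9 genes were higher and 1 lower in MUTZ-1 control, with BDH1 at 1.45 ± 0.05 SE and FAM43A at -1.49 ± 0.09 SE, the most negative of the 50. The most positive were PLEKHA2 (2.34 ± 0.04 SE, adjusted p = 5.37e-126 by edgeR) and PEG10 (2.31 ± 0.02 SE), and IRF9 followed (1.56 ± 0.08 SE). NECTIN1 (-1.28 ± 0.05 SE) was among the 5 most negative. NUDT21 itself differed little, by -0.16 ± 0.03 SE (adjusted p = 6.33e-09 by edgeR).

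**Figure D5:**
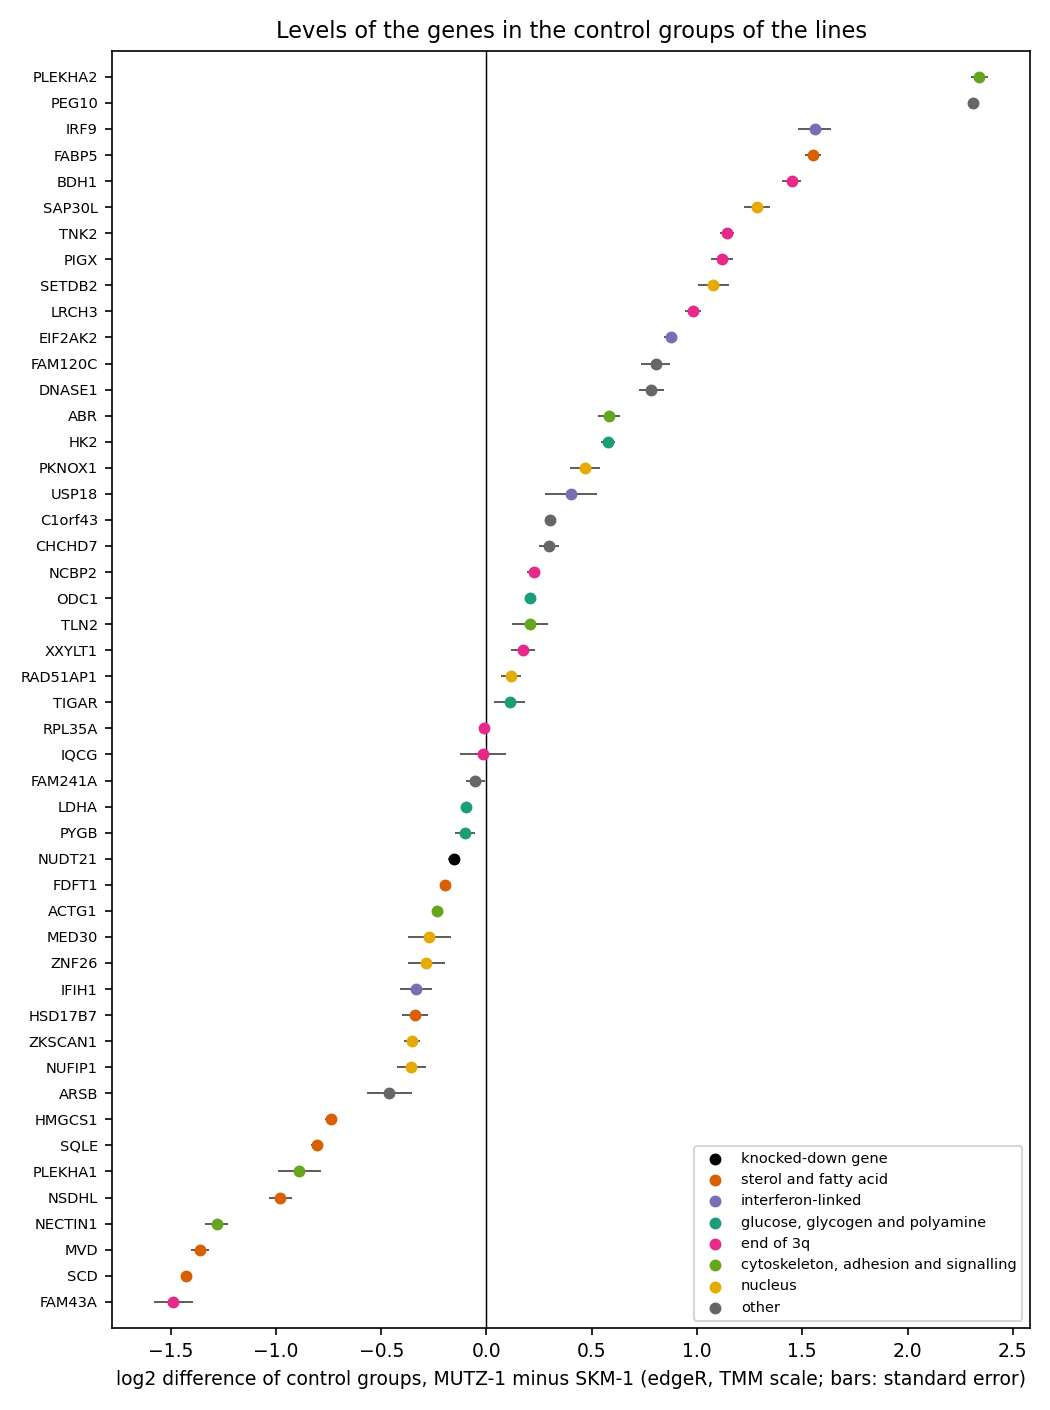
Log2 difference in level between the control groups, MUTZ-1 minus SKM-1, for 48 of the 50 genes, ordered from high to low and coloured by group. Points are edgeR estimates on the TMM scale and bars are standard errors. PLEKHA2 and PEG10 lie above 2, FAM43A, SCD and MVD lie under -1.3, and 7 of the 8 sterol and fatty acid genes drawn lie left of 0.

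The 50 genes were spread over the genome apart from 3q. Chromosome 3 held 10 of them among 442 genes at the level, chromosome 8 held 6 of 279, and chromosomes 6, 9, 18 and 19 held 0. The 6 on chromosome 8 were FDFT1, SQLE, FABP5, PLEKHA2, CHCHD7 and MED30. In MUTZ-1 the median log2 ratio of chromosome 8 was 0.039 and in SKM-1 it was 0.21. The 3' untranslated regions of the 50 had a median length of 1832 bases against 1276 for genes at the level (GENCODE 29, the principal transcript with the longest such region, of at least 100 bases). Binding of the NUDT21 protein to UGUA in them was not measured. UGUA occurred at a median of 4.87 per kilobase against 5.32, and the GC content was 41.3% against 41.5%. The quartiles of the length ran between 749 and 3864.5 bases in the 50 and between 539.5 and 2642.5 bases in genes at the level. Those of the density ran between 3.36 and 6.63 in the 50 and between 3.07 and 7.6 in genes at the level. For both measures they overlapped widely. The median length was 613 bases for the 7 sterol genes and 1436 bases for the 9 genes at the end of 3q. The use of one poly(A) site or another cannot be read from gene counts.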

How the data were processed

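Poly(A)-selected RNA was sequenced from 12 libraries (TruSeq Stranded mRNA, per the labels' protocols). Per the submitters' processing notes, fastp, HISAT2 and HTSeq were used with build GRCh38, with no version given. The authors deposited raw counts per gene, used for every test, and FPKM, used for levels per length and 1 alternative. Group ratios were taken from CPM, which scales each library by its total only. The members and gene lists were chosen with earlier results of these data known, and functional groups were assigned after the members were seen. Tests used edgeR 4.0.16 (limma 3.58.1, R 4.3.3): TMM scaling, filterByExpr, 1 robust quasi-likelihood fit of the 4 groups, and Benjamini-Hochberg adjustment over 13625 genes, with 0.05 as threshold. The script was tested on simulated data. Named genes were NUDT21, the genes with the lowest ratios, the highest levels or the largest control differences, genes on a list, and those next to the threshold, and a few of these are not reported here. Alternatives were library totals, DESeq2 1.42.0, no filter, limma on log2(FPKM + 1), other rule thresholds, a replicate block and leaving out each library. Tables and figures were made with Python 3.11.15, pandas 2.3.3, numpy 2.4.6 and matplotlib 3.10.9. Promoters and positions are from RefSeq GRCh38.p14 and 3' untranslated regions from GENCODE 29. Depth was 15843012 to 18426619 counts per library. Replicates differed by more than sampling noise, and all were counted separately.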

Additional observations from a re-analysis of the deposited data

Results flagged for a closer look

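The log2 change after knockdown differed between the lines for 18 of the genes outside the 50 that were named above, by edgeR's test of the difference itself (change in MUTZ-1 minus change in SKM-1, highest adjusted p = 0.000594, for OAS1). For IFI44 it was not called (adjusted p = 0.141 by edgeR). Some of these genes were named after their values were seen, and the rule had kept all of them out of the 50. The count therefore only describes the genes named, and the share over all genes tested is not given here. Among cholesterol synthesis genes the difference was -0.984 ± 0.0513 SE for ACAT2, -0.429 ± 0.0491 SE for IDI1, -0.288 ± 0.0456 SE for LSS, -0.638 ± 0.0491 SE for DHCR7 and -1.05 ± 0.0346 SE for LBR, a lower change in MUTZ-1. It was 0.627 ± 0.101 SE for MVK, 0.544 ± 0.0361 SE for FDPS and 1.81 ± 0.0687 SE for MSMO1, a lower change in SKM-1. Among genes of sterol uptake and control it was 1.43 ± 0.0327 SE for SREBF2 and 0.184 ± 0.0423 SE for INSIG1. Among interferon genes it was -2.55 ± 0.0538 SE for BST2 and -2.9 ± 0.166 SE for ISG15, and 2.06 ± 0.396 SE for HERC6 and 4.38 ± 1.2 SE for OAS1. OAS1 had no count in the SKM-1 shNUDT21 libraries, so its fitted difference depends on the prior count of the model. At the end of 3q it was -3.12 ± 0.0299 SE for TFRC, -1.11 ± 0.0359 SE for PAK2, -1.62 ± 0.0554 SE for LSG1 and 2.65 ± 0.11 SE for MELTF. Library totals in place of TMM move the median of all such differences by 0.13.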

How the results depend on the processing

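Of the 50 genes, 20 remained at a ratio threshold of 0.70, and 78 genes passed at 0.80. A CPM minimum of 5 gave 67 genes and one of 20 gave 41. TMM-scaled CPM gave 58, of which 43 were among the 50, and FPKM gave the same 50. Leaving out 1 library gave 48 to 53, and 35 of the 50 were kept in each of the 12 cases. Without the end of 3q, an alternative chosen after seeing the data, 41 remained. Between the controls, 21 to 24 of the 50 were higher and 20 to 24 lower in MUTZ-1 when 1 library was left out. Other cholesterol synthesis genes higher in MUTZ-1 numbered 1 to 2, with 1 when shNUDT21 replicate 3 of MUTZ-1 was left out. With limma on log2(FPKM + 1) the difference between the lines reversed for IFI44 (-1.99, against 1.06 by edgeR) and OAS1 (-1.23, against 4.38), both at few or no counts in SKM-1, and the DHCR7 call in SKM-1 was lost (0.073, adjusted p = 0.078 by limma). The cause was not tested. Replicate numbers did not pair the samples (correlations of deviations -0.0231 to 0.0185), and with a replicate block 24 of the 50 were higher and 22 lower in MUTZ-1 control, 3333 genes lower in MUTZ-1 and 5747 in SKM-1. Precision is limited where levels are low, as for the 12 of the 50 at a mean of 1 FPKM or less in SKM-1 shNUDT21.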
